A study of Rattus norvegicus with 6 samples.

Results

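The genes of blood coagulation and fibrinolysis described here are F3, Tfpi, Tfpi2, Thbd, F2r, Plat, Plau, Plaur and Serpine2, and all 9 are listed among the 13526 genes of the table. They were chosen by gene symbol, with the difference between the groups in these same libraries already known. Their differences are therefore given as a description and without p-values, and nothing is read from the calls among them. RNA-seq was performed on primary rat VSMCs (vascular smooth muscle cells of wild-type rats, grown out of the thoracic aorta once its adventitia and intima had been removed) in 2 groups. The OM plus EMPA group (n = 3) received osteogenic media with empagliflozin, an SGLT2 inhibitor (a glucose-lowering drug that blocks sodium-glucose cotransport), at 1 μM, and the OM group (n = 3) received the same media without it. The osteogenic media, shared by both groups, were DMEM with fetal bovine serum, 10 mM β-glycerophosphate and 3.5 mM CaCl2, which induces calcification. The titles of the samples call this medium Pi, an abbreviation the paper uses for inorganic phosphate, while OM is what the labels' treatment protocol and the figure legend describe, so the identity of the medium rests on these. Treatment lasted 5 days by the sample labels. The paper states a different duration. Cells kept in complete media were not analysed here, and each value sets empagliflozin against its absence in calcifying cells. Whether the 3 libraries of a group stem from separate cultures or rats is not stated, so a p-value reflects the spread among these libraries alone, which may be technical.

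Of these genes, F3 (tissue factor) was 2.27 times as high in the OM plus EMPA group as in the OM group, while Serpine2 (protease nexin-1) was 0.412 times, Plat (tissue plasminogen activator) 0.673 times and Tfpi2 (tissue factor pathway inhibitor 2) 0.774 times as high. F2r, the thrombin receptor PAR1, was 1.23 times as high. Tfpi, Thbd and Plaur overlapped between the groups, and Plau lay near the bottom of the table in every library.

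Tissue factor is a membrane protein that binds factor VIIa and so starts coagulation, which ends in the formation of thrombin and fibrin. Tissue factor pathway inhibitor blocks this first step, thrombomodulin turns thrombin towards the activation of protein C, and PAR1 passes the thrombin signal into the cell. The plasminogen activators make plasmin, which dissolves fibrin and also acts on the matrix, and serpins such as protease nexin-1 inhibit them. In the vessel wall, smooth muscle and adventitial cells carry tissue factor and thus hold it apart from the blood until the vessel is injured.

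Expression is given as TPM, a transcript abundance that takes account of transcript length and is scaled per library to a common sum (997954 to 998293 here). Levels can thus be set side by side between genes, but the sequencing depth is unknown. The 12564 genes that averaged 1 TPM or more were compared with limma on log2(TPM + 1), and a gene was called where its adjusted p did not exceed 0.05. Over all tested genes 259 were called higher and 611 lower in the OM plus EMPA group. Median-ratio scaling, which sets the libraries level by the typical gene, gave 394 and 380, and so moved the share of higher calls to 50.9%, against 29.8% without it. Of the smooth muscle markers, 5 of 6 were listed (Des was not), with a summed level of 2465 to 2910 TPM in the OM plus EMPA libraries, against 1751 to 2149 TPM in the OM libraries. Acta2, Tagln and Cnn1 rose (log2 fold changes 0.70, 0.43 and 0.77, adjusted p = 0.0281, 0.0297 and 0.0150, limma), and Myh11 and Smtn did not pass the test (-0.17 and 0.15). The 5 fibroblast markers, led by Dcn and Lum, summed to 4637 to 5409 TPM in the OM plus EMPA libraries, against 6093 to 6937 TPM in the OM libraries, and Pdgfra and Dcn among them fell (limma adjusted p = 0.0488 and 0.0411, but 0.0944 and 0.0741 with median-ratio scaling). Lum (log2 fold change -0.09) and Pi16 (0.26) did not pass the test, and Dpt was under the filter. None of 7 endothelial, 4 platelet or 5 hepatocyte markers was listed, and of 7 macrophage and leukocyte markers only Cd68 and Cd14 were, at a sum of 30.1 to 40.0 TPM in the OM plus EMPA libraries, against 40.5 to 44.3 TPM in the OM libraries. Cd68 fell (7.49 TPM in the OM plus EMPA group, against 13.8 TPM in the OM group, log2 fold change -0.83, limma adjusted p = 0.0378), and Cd14 overlapped between the groups (-0.15). In bulk RNA, fewer cells of a type and less RNA per cell cannot be told apart, and the part of these markers in the values of the coagulation genes was not tested.

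RefSeq promoter windows (build GRCr8) were matched by symbol for 6 of these genes. F3, Thbd and Plat were not matched. The 250 bases before the gene start are shown for F2r, higher with empagliflozin, for Tfpi2 and Serpine2, lower with it, and for Plaur, because F2r, Tfpi2 and Plaur share a match to the AP-1 motif and Serpine2 has the most matches to the SP1 motif. The windows lie at chr2:28620580-28620829 on the minus strand, at chr4:32941277-32941526 on the minus strand, at chr1:89181113-89181362 on the plus strand and at chr9:88637203-88637452 on the minus strand. Sequences run 5′ to 3′ on the strand of the gene, and capitals mark every match to a searched motif on either strand.
F2r: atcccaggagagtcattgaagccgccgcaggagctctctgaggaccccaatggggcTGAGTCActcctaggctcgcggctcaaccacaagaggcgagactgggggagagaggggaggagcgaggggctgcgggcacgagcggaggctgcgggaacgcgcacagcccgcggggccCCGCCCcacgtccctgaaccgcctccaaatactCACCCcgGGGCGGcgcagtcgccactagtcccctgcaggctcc
Tfpi2: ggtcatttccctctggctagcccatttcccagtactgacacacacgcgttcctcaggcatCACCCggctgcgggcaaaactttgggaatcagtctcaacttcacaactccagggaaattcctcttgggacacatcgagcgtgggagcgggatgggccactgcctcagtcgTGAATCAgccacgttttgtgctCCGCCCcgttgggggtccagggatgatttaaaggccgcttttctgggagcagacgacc
Plaur: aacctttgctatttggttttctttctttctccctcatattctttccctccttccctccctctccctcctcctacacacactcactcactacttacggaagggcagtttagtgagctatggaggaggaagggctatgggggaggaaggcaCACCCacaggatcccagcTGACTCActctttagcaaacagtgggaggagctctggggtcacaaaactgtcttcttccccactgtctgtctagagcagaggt
Serpine2: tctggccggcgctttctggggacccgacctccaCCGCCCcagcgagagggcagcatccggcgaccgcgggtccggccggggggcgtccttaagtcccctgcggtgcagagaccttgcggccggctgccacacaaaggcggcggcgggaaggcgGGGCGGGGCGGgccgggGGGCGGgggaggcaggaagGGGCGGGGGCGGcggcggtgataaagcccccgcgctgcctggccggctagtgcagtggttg

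Both strands were searched. The AP-1 motif was spelled TGANTCA. These letters lay 194 to 188 bases before the start of F2r, 80 to 74 bases before that of Tfpi2 and 83 to 77 bases before that of Plaur, and were found in 6.34% of 33469 promoter windows of the same length. The SP1 motif was spelled GGGCGG and was found in 30.5% of all windows. It matched 6 times before Serpine2, and 2 of these matches overlap with the only match of the EGR1 motif, spelled GCGNGGGCG and found in 4.29% of all windows. The KLF motif, spelled CACCC, was found in 49.2% of all windows and in the windows of F2r, Tfpi2 and Plaur among those shown. The TEAD motif, spelled GGAATG, was found in 12.1% of all windows but in none of the 4 shown. The TATA motif, spelled TATAAA, occurred in 12.9% of all windows. The NF-kB motif, spelled GGGRNYYYCC (R for A or G, Y for C or T, N for any base), occurred in 4.24%. The CArG box, spelled CCWWWWWWGG (W for A or T), occurred in 1.50%. None of these spellings was in a window of the 6 genes. Other spellings of these motifs were not searched, and the window of Tfpi2 holds gggaaattcc, which the NF-kB spelling used here does not cover. The window of Serpine2 held 76.8% G and C, that of F2r 69.6%, that of Tfpi2 57.2% and that of Plaur 51.2%, against a median of 51.2% over all windows.

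F3 encodes tissue factor, the starter of the extrinsic pathway. Its level was 249.65, 245.31 and 215.56 TPM in the OM plus EMPA libraries and 96.69, 118.39 and 98.51 TPM in the OM libraries. The groups did not overlap, and the lowest value with empagliflozin was far above the highest without it. The means were 237 ± 18.6 TPM in the OM plus EMPA group, against 105 ± 12.04 TPM in the OM group (SD, n = 3 each), a log2 fold change of 1.18 (SE 0.09). F3 stood at percentile 95.3 of all listed genes in the OM plus EMPA group and at percentile 88.4 in the OM group. The table places F3 on chromosome 2 at 209826951 to 209838668 on the plus strand, in a build that the sources used here do not name, with 2 reference transcripts and 1 assembled transcript.

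Tfpi encodes the inhibitor of the complex of tissue factor and factor VIIa. It was at 85.31, 71.93 and 78.38 TPM in the OM plus EMPA libraries and at 81.11, 78.16 and 84.07 TPM in the OM libraries. The OM values lay inside the range of the OM plus EMPA values. The log2 fold change was -0.05 (SE 0.07), and 0.01 with median-ratio scaling, so no direction can be given. Tfpi lies on chromosome 3 of the authors' table at 69533139 to 69576880 on the minus strand. The ratio of F3 to Tfpi within a library was 2.93, 3.41 and 2.75 in the OM plus EMPA libraries and 1.19, 1.51 and 1.17 in the OM libraries. F3 thus exceeded Tfpi in each of the 6 libraries, by a mean of 3.03 ± 0.34 times in the OM plus EMPA group and 1.29 ± 0.19 times in the OM group (SD, n = 3 each).

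Tfpi2 encodes a related Kunitz-type inhibitor that is secreted into the matrix and acts on plasmin more than on tissue factor. It was at 69.88, 68.81 and 73.79 TPM in the OM plus EMPA libraries and at 91.61, 91.50 and 91.50 TPM in the OM libraries. The OM libraries were nearly identical, with an SD of 0.0635 TPM, and lay above all OM plus EMPA libraries. The means were 70.8 ± 2.62 TPM in the OM plus EMPA group, against 91.5 ± 0.0635 TPM in the OM group (SD, n = 3 each), and the log2 fold change was -0.37 (SE 0.04). F3 was at 1.61, 1.74 and 1.42 times the sum of Tfpi and Tfpi2 in the OM plus EMPA libraries, against 0.560, 0.698 and 0.561 times in the OM libraries. The summed mRNA of Tfpi and Tfpi2 therefore lay below F3 in the OM plus EMPA group and above it in the OM group. This crossing holds only for the sum, since Tfpi alone lay below F3 in every library.

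Thbd encodes thrombomodulin, a receptor of thrombin best known from endothelium. It was at 26.67, 20.31 and 16.92 TPM in the OM plus EMPA libraries and at 23.28, 16.76 and 15.27 TPM in the OM libraries. The groups overlapped, and in each group replicate 1 was the highest. Thbd had the largest relative spread of these genes in both groups, with a coefficient of variation of 23.2% in the OM plus EMPA group and 23.1% in the OM group. Its log2 fold change was 0.20 (SE 0.19), but 0.03 when OM plus EMPA replicate 1 was left out, 0.08 without OM replicate 3, 0.37 without OM replicate 1 and 0.34 without OM plus EMPA replicate 3. The endothelial markers Pecam1, Cdh5, Vwf, Kdr, Tie1, Tek and Emcn were not listed in any library.

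F2r encodes PAR1, which thrombin cleaves. It was at 192.21, 216.44 and 191.44 TPM in the OM plus EMPA libraries and at 151.17, 180.65 and 154.40 TPM in the OM libraries. The groups did not overlap, and replicate 2 was the highest in each. The means were 200.03 ± 14.2 TPM in the OM plus EMPA group, against 162 ± 16.2 TPM in the OM group (SD, n = 3 each), and the log2 fold change was 0.30 (SE 0.08), 0.36 with median-ratio scaling and 0.38 without OM replicate 2. Acta2, the smooth muscle actin, was also highest in replicate 2 of each group, at 431.27, 559.03 and 473.98 TPM in the OM plus EMPA libraries and at 256.98, 366.92 and 282.13 TPM in the OM libraries. The ratio of F2r to Acta2 was 0.412 ± 0.030 in the OM plus EMPA group and 0.543 ± 0.048 in the OM group (SD, n = 3 each). The ratio of F3 to Acta2 was 0.491 ± 0.077 in the OM plus EMPA group and 0.349 ± 0.027 in the OM group. The direction for F2r relative to smooth muscle markers depends on the marker. Acta2 was 1.62 times, Tagln 1.34 times and Cnn1 1.75 times as high in the OM plus EMPA group as in the OM group, against 1.23 times for F2r. Smtn, at 1.11 times, and Myh11, at 0.883 times, lay below F2r in this ratio.

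F2r lies between the genes of the other receptors of its family on chromosome 2 of the authors' table. F2rl1 (PAR2), 83.2 kb away, averaged 1.39 ± 0.225 TPM in the OM plus EMPA group, against 1.78 ± 0.169 TPM in the OM group (SD, n = 3 each). F2rl2 (PAR3), 86.2 kb away, averaged 1.72 ± 0.521 TPM in the OM plus EMPA group, against 1.44 ± 0.708 TPM in the OM group (SD, n = 3 each). Both were far below F2r in each library, where F2r exceeded F2rl1 by 78.7 to 180 times and F2rl2 by 85.1 to 221 times. Neither neighbour passed the test (F2rl1 log2 fold change -0.22, SE 0.13, limma adjusted p = 0.357, F2rl2 0.18, SE 0.24, limma adjusted p = 0.693). F2rl3 was not listed.

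**Figure D1:**
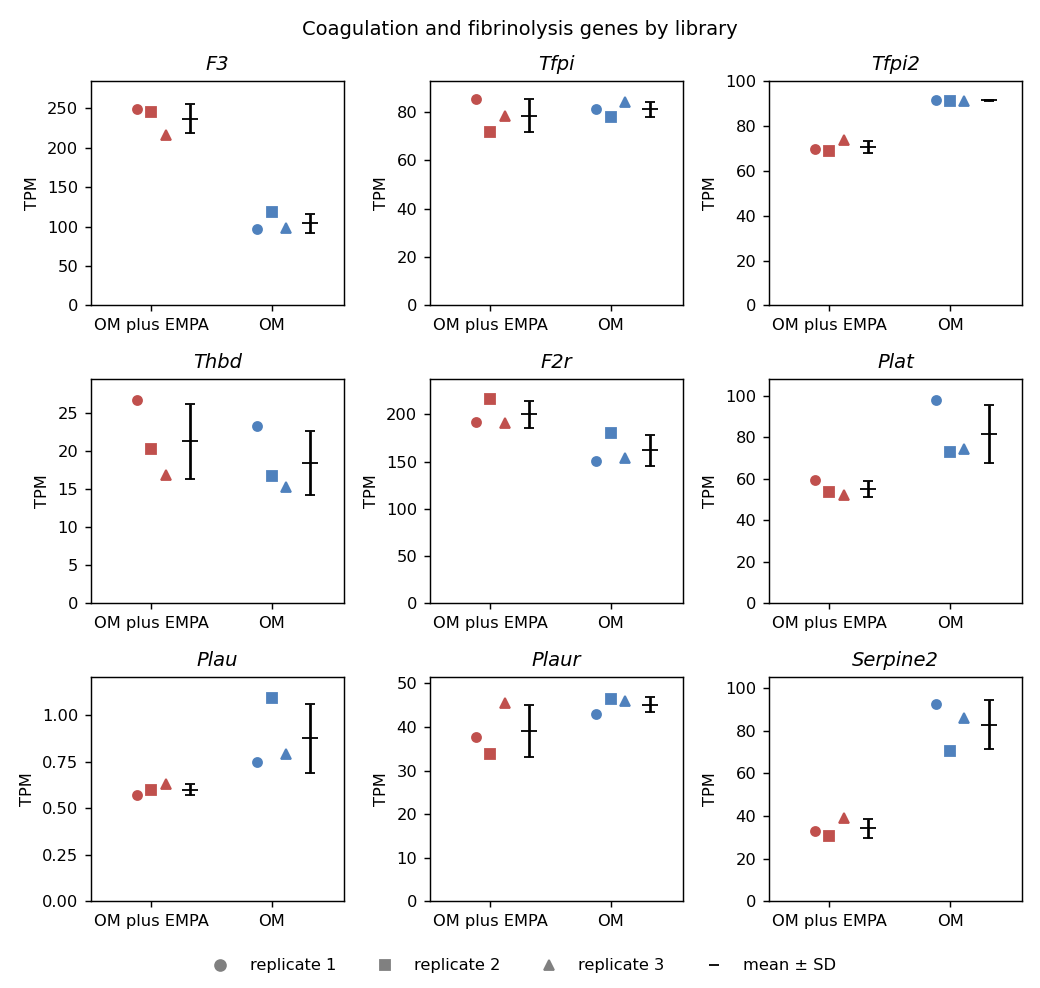
TPM of the 9 coagulation and fibrinolysis genes in each library, with the OM plus EMPA group in red, the OM group in blue, a symbol for each replicate number and black bars for the mean ± SD (n = 3). F3 lies between 215.56 and 249.65 TPM with empagliflozin and between 96.69 and 118.39 TPM without it, and the groups overlap for Tfpi, Thbd and Plaur.

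Plat (chromosome 16 of the authors' table, 69240564 to 69268223, minus strand) encodes the tissue plasminogen activator. It was at 59.41, 53.50 and 52.04 TPM in the OM plus EMPA libraries and at 97.69, 73.09 and 74.24 TPM in the OM libraries. The groups did not overlap, and OM replicate 1 stood above the other OM libraries. The means were 55.0 ± 3.90 TPM in the OM plus EMPA group, against 81.7 ± 13.9 TPM in the OM group (SD, n = 3 each), and the log2 fold change was -0.55 (SE 0.11), or -0.42 without OM replicate 1. Plau, the urokinase-type activator, was at 0.57, 0.60 and 0.63 TPM in the OM plus EMPA libraries and at 0.75, 1.09 and 0.79 TPM in the OM libraries. These values do not overlap either, but with a mean of 0.738 TPM over all libraries Plau did not pass the filter and was not tested, and with no filter its log2 fold change was -0.23. Plat exceeded Plau by 82.6 to 104 times in the OM plus EMPA libraries and by 67.1 to 130 times in the OM libraries, so nearly all plasminogen activator mRNA was Plat.

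Plaur encodes the receptor that holds urokinase at the cell surface. It was at 37.78, 33.85 and 45.49 TPM in the OM plus EMPA libraries and at 43.05, 46.43 and 45.90 TPM in the OM libraries. Replicates 1 and 2 with empagliflozin were below all OM libraries, and replicate 3 lay among them. The log2 fold change was -0.21 (SE 0.10), but -0.12 when OM plus EMPA replicate 2 was left out and -0.33 when OM plus EMPA replicate 3 was. The receptor was thus at 39.0 ± 5.92 TPM in the OM plus EMPA group, against 45.1 ± 1.82 TPM in the OM group (SD, n = 3 each), in cells with less than 1.1 TPM of its ligand in every library.

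Serpine2 encodes protease nexin-1, a serpin that inhibits thrombin, urokinase and tissue plasminogen activator at the cell surface. It was at 33.07, 30.56 and 39.02 TPM in the OM plus EMPA libraries and at 92.37, 70.44 and 86.05 TPM in the OM libraries. The groups did not overlap, and replicate 2 was the lowest in each. The means were 34.2 ± 4.35 TPM in the OM plus EMPA group, against 83.0 ± 11.3 TPM in the OM group (SD, n = 3 each), with a log2 fold change of -1.25 (SE 0.12), at rank 32 from the lowest among the 12564 tested genes. Serpine2 stood at percentile 69.8 of all listed genes with empagliflozin and at percentile 85.3 without it. It lies on chromosome 9 of the authors' table at 81124801 to 81188873 on the minus strand.

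Serpine2 was set beside Plat, one of the proteases it inhibits. Plat was at 1.80, 1.75 and 1.33 times the level of Serpine2 in the OM plus EMPA libraries, against 1.06, 1.04 and 0.863 times in the OM libraries. The ratio separated the groups without overlap and averaged 1.63 ± 0.255 in the OM plus EMPA group and 0.986 ± 0.107 in the OM group (SD, n = 3 each). Both genes were lower with empagliflozin, Serpine2 by the larger factor.

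**Figure D2:**
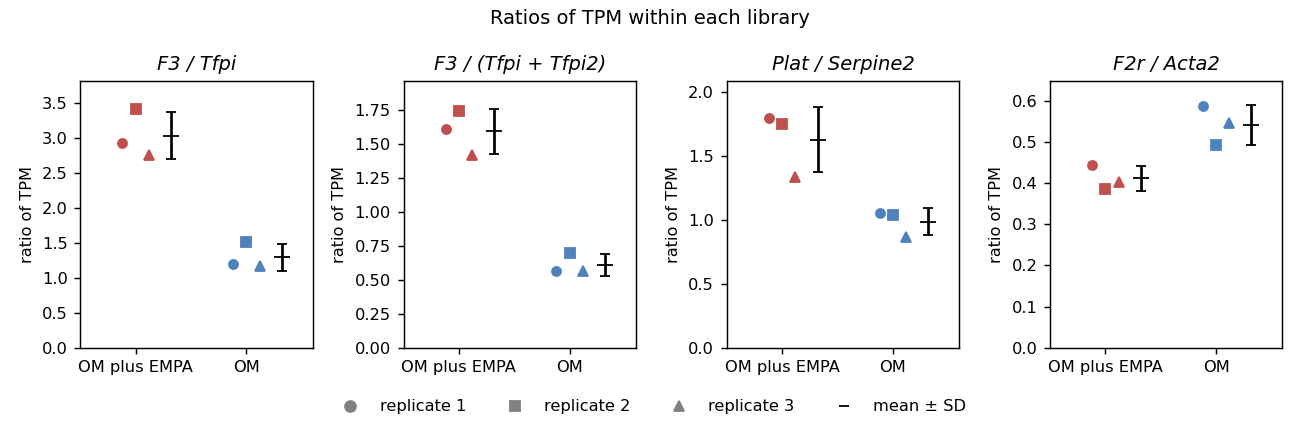
Ratios of TPM of gene pairs within each library, with symbols and colours as for the levels and black bars for the mean ± SD (n = 3). The ratio of F3 to Tfpi lies between 2.75 and 3.41 in the OM plus EMPA libraries and between 1.17 and 1.51 in the OM libraries, and that of Plat to Serpine2 between 1.33 and 1.80 in the OM plus EMPA libraries and between 0.863 and 1.06 in the OM libraries.

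Of the 9 genes, 8 passed the filter on low values. Among these 8, 1 (F3) was called higher, against 2.06% of all tested genes, and 3 (Tfpi2, Plat and Serpine2) were called lower, against 4.86%. The groups did not overlap for 2 that were higher (F3 and F2r), against 7.85% of all tested genes, and for 3 that were lower, against 22.5%. With median-ratio scaling 2 were called higher, F2r being added, against 3.14%, and the same 3 lower, against 3.03%. Plat was not called when any 1 OM plus EMPA library or OM replicate 3 was left out, and F2r was called when OM replicate 2 was left out. Nothing is read from these counts, since the same contrast chose the genes. The median log2 fold change of the 8 genes was -0.13, and that of all tested genes was -0.05.

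The order of the levels differed between the groups. With empagliflozin F3 came first at 237 TPM and F2r second at 200.03 TPM, with overlapping ranges, whereas in the OM group F2r came first at 162 TPM and F3 second at 105 TPM, without overlap. In the OM plus EMPA group there followed Tfpi and Tfpi2, whose ranges overlapped, then Plat, then Plaur and Serpine2, whose ranges overlapped, then Thbd and Plau. In the OM group Tfpi2, Serpine2, Plat and Tfpi followed within 81.1 to 91.5 TPM, each overlapping with the next in range, and then came Plaur, Thbd and Plau. Serpine2 was thus level with Plat in the OM group and stood 2 places below it in the OM plus EMPA group.

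**Figure D3:**
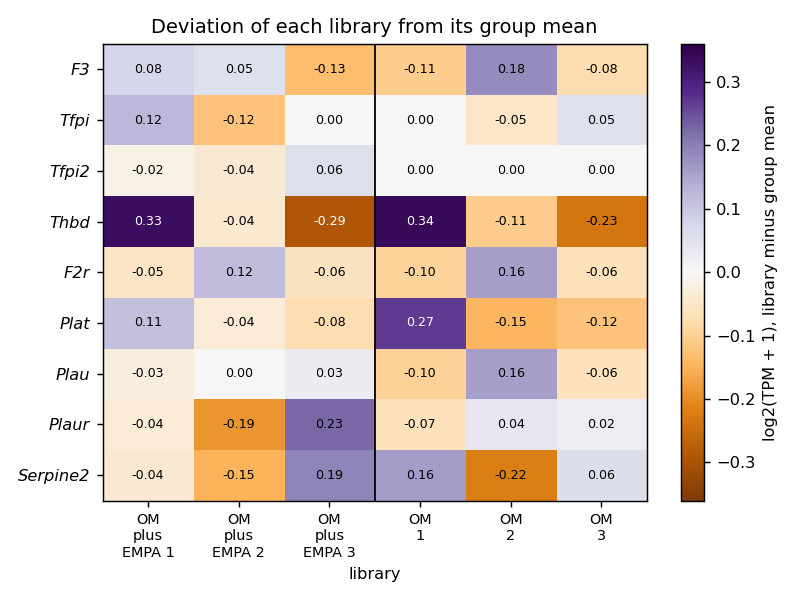
Difference of each library from its group mean on the log2(TPM + 1) scale for the 9 genes, with genes in rows, libraries in columns and a black line between the groups. Replicate 1 was high for Thbd and Plat in both groups, and replicate 2 was high for F2r and low for Serpine2 in both.

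The libraries of a group did not shift all these genes together. OM plus EMPA replicate 1 was 0.33 above its group mean for Thbd and 0.04 below it for Serpine2 on the log2(TPM + 1) scale, and OM replicate 1 was 0.34 above for Thbd and 0.10 below for F2r. OM replicate 2 was 0.18 above its group mean for F3 and 0.16 above for F2r, and 0.22 below for Serpine2. OM plus EMPA replicate 3 was 0.23 above for Plaur and 0.19 above for Serpine2, and 0.29 below for Thbd.

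Profiles were compared as the distance between centred log2(TPM + 1) values over the 6 libraries, among 11152 other genes with a symbol. This centring keeps the difference between the groups, so a near profile has a similar log2 fold change. Shared regulation was not tested. The genes nearest to F3 were Sorbs2, an adaptor of the actin cytoskeleton (distance 0.29), and the oxidase gene Duox1 (0.29), both low at 1.16 to 5.30 TPM. Nearest to Serpine2 were the guanylate-binding protein gene Gbp7 (0.18) and Tnfaip3 (0.23), an inhibitor of NF-κB signalling. Their log2 fold changes were -1.26 and -1.37, against -1.25 for Serpine2. Gbp7 was at 56.97, 51.25 and 58.84 TPM in the OM plus EMPA libraries and at 156.17, 118.87 and 131.85 TPM in the OM libraries. Nearest to Plat were the immunoproteasome subunit gene Psmb10 (0.10) and Serpini1, which encodes neuroserpin (0.12). Nearest to F2r were Adamts2, a procollagen protease gene (0.05), and the vimentin gene Vim (0.07), and nearest to Tfpi2 were Nsun4 (0.07, a symbol carried by 2 rows of the table) and Ddi2 (0.07).

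In the annotation of the authors' table, 7 of these 9 genes (all but Tfpi2 and Serpine2) belong to the KEGG pathway of complement and coagulation cascades, which holds 32 of all listed genes. The GO term blood coagulation is given for 6 of them (F3, Tfpi, Tfpi2, Thbd, F2r and Serpine2) and for 30 listed genes in all. The term serine-type endopeptidase inhibitor activity is given for Tfpi, Tfpi2 and Serpine2.

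Other genes of coagulation and fibrinolysis were taken from 6 lists that hold none of these 9 genes. These lists were also drawn up with earlier results of these data known. Their calls and p-values are therefore not an independent test, and the genes named were mostly picked by the smallest p. Of 56 genes, 26 were listed and 25 tested. Of these, 2 rose (2.06% of all tested genes did), 5 fell (4.86% of all tested genes did) and 18 did not pass the test, with a median log2 fold change of -0.09. At an unadjusted p under 0.05 in limma 5 were higher and 6 lower, against 807 and 2217 of all 12564 tested genes. Lower genes thus outnumbered higher ones over all genes too, which is the background for the counts of each list below. With median-ratio scaling 4 rose (Pros1, Gas6, Ggcx and Vkorc1), against 3.14% of all tested genes, and 2 fell (Anxa5 and Serpinb2), against 3.03%.

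The circulating clotting factors, which are mainly made by the liver, were nearly all not listed. Of 17 genes of clotting factors and fibrinogen only F8 was listed, and the genes of prothrombin, of factors V, VII, IX and X and of the fibrinogen chains were not. F8, the cofactor of factor IX, was at 6.13 ± 0.159 TPM in the OM plus EMPA group, against 6.37 ± 0.854 TPM in the OM group (SD, n = 3 each, log2 fold change -0.04, SE 0.10, limma adjusted p = 0.839). Matched by symbol, the table thus held the starter of coagulation, its inhibitors and the thrombin receptor but not prothrombin. Rows without a symbol were not searched, and a gene that is not listed may still be expressed.

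Of 9 genes of anticoagulants 3 were tested, of which 1 fell and 0 rose (1 of each at an unadjusted p under 0.05 in limma). Anxa5, which encodes annexin A5, a protein that covers phosphatidylserine, was at 506.82, 510.64 and 521.09 TPM in the OM plus EMPA libraries and at 650.15, 635.30 and 612.81 TPM in the OM libraries. The groups did not overlap, and Anxa5 fell by 0.30 on the log2 scale (SE of 0.04, limma adjusted p = 0.00711). Pros1, which encodes the protein C cofactor protein S, was at 64.69, 59.34 and 67.75 TPM in the OM plus EMPA libraries and at 51.24, 56.04 and 54.18 TPM in the OM libraries. Its log2 fold change was 0.24 (SE 0.06, limma adjusted p = 0.0564), and 0.30 with median-ratio scaling (limma adjusted p = 0.0253). Procr, the endothelial protein C receptor, overlapped between the groups with 9.23 ± 0.388 TPM in OM plus EMPA cells and 10.5 ± 1.38 TPM in OM cells (log2 fold change -0.16, SE 0.10, limma adjusted p = 0.374).

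Of 15 genes of the plasminogen system 9 were tested, of which 3 fell and 0 rose, also at an unadjusted p under 0.05 in limma. All 3 that fell encode serpins, a family with several genes on this list. Serpinb2, which encodes PAI-2, an inhibitor of urokinase, was at 1.30, 0.92 and 1.13 TPM in the OM plus EMPA libraries and at 4.31, 2.48 and 3.89 TPM in the OM libraries, and fell by 1.09 (SE 0.18, limma adjusted p = 0.0140). Serpini1, which encodes neuroserpin, an inhibitor of tissue plasminogen activator, was at 2.57, 2.35 and 2.12 TPM in the OM plus EMPA libraries and at 5.10, 3.39 and 3.85 TPM in the OM libraries, and fell by 0.60 (SE 0.14, limma adjusted p = 0.0484). Both are near the filter on low values, where the log2(TPM + 1) scale understates a change.

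Serping1, the C1 inhibitor, which also inhibits factor XIIa and kallikrein, was at 500.80, 516.34 and 561.15 TPM in the OM plus EMPA libraries and at 597.72, 672.28 and 684.83 TPM in the OM libraries, and fell by 0.31 (SE 0.07, limma adjusted p = 0.0361). It lies 266 kb from Tfpi on chromosome 3 of the authors' table. With median-ratio scaling Serpini1 and Serping1 no longer passed (limma adjusted p = 0.0623 and 0.0828). Serpinb2 lost its call when OM plus EMPA replicate 2, OM replicate 1 or OM replicate 3 was left out, the limma adjusted p reaching up to 0.0571. Serpini1 lost its call without any 1 library other than OM replicate 2, with a limma adjusted p up to 0.130, and Serping1 lost it without any 1 library other than OM replicate 1 and OM plus EMPA replicate 3, with one up to 0.115.

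Anxa2 and Plgrkt encode proteins that bind plasminogen at the cell surface. Anxa2 was among the most abundant genes, at 1396 ± 42.9 TPM in the OM plus EMPA group, against 1447 ± 73.3 TPM in the OM group (SD, n = 3 each, log2 fold change -0.05, SE 0.05, limma adjusted p = 0.602). Plgrkt, a plasminogen receptor, was at 31.6 ± 1.51 TPM in the OM plus EMPA group, against 34.9 ± 2.75 TPM in the OM group (log2 fold change -0.14, SE 0.07, limma adjusted p = 0.278). Plg, the gene of plasminogen itself, was not listed, nor were A2m, Cpb2, Hrg and Vtn, whose products regulate fibrinolysis in plasma.

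**Figure D4:**
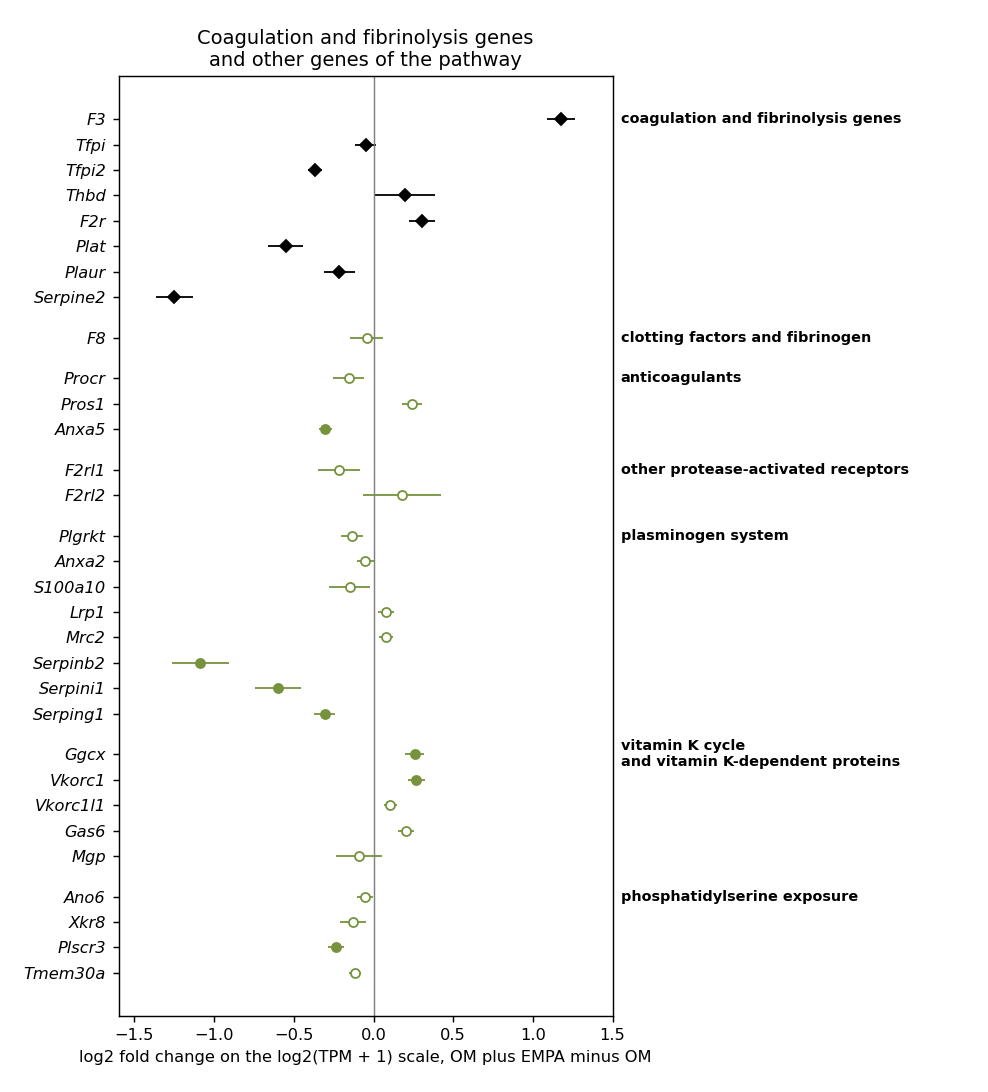
Difference of OM plus EMPA and OM means of log2(TPM + 1), positive where empagliflozin was higher, with bars of 1 SE, for the 8 coagulation and fibrinolysis genes that passed the filter (black diamonds, a description) and for tested genes of the other lists (green circles, filled where the limma adjusted p did not exceed 0.05). F3 lies at 1.18 and Serpine2 at -1.25, outside the range of the other genes, of which Serpinb2 at -1.09 comes closest to Serpine2. The other lists were also chosen with earlier results of these data known.

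Ggcx and Vkorc1, both enzymes of the vitamin K cycle, rose with empagliflozin. The cycle supplies the cofactor with which several clotting factors, protein S and the calcification inhibitor matrix Gla protein are carboxylated. Of 6 genes on the list 5 were tested, of which 2 rose and 0 fell (4 and 0 at an unadjusted p under 0.05 in limma), with a median log2 fold change of 0.20 against -0.05 for all tested genes. Of all 12564 tested genes 259 rose and 611 fell (807 and 2217 at an unadjusted p under 0.05 in limma). Ggcx, the carboxylase, was at 121.96, 112.26 and 105.89 TPM in the OM plus EMPA libraries and at 97.15, 96.15 and 90.29 TPM in the OM libraries, and rose by 0.26 (SE 0.06, limma adjusted p = 0.0446). Vkorc1, the vitamin K epoxide reductase that warfarin inhibits, was at 31.58, 33.96 and 33.57 TPM in the OM plus EMPA libraries and at 27.54, 26.78 and 27.39 TPM in the OM libraries, and rose by 0.27 (SE 0.05, limma adjusted p = 0.0237). The groups overlapped for neither gene.

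Gas6, a vitamin K-dependent ligand of TAM receptors, was at 251 ± 8.65 TPM in the OM plus EMPA group, against 218 ± 10.99 TPM in the OM group (SD, n = 3 each, log2 fold change 0.20, SE 0.05, limma adjusted p = 0.0504). Vkorc1l1, the paralogue of Vkorc1, was at 79.9 ± 2.46 TPM in the OM plus EMPA group, against 74.2 ± 1.21 TPM in the OM group (log2 fold change 0.11, SE 0.04, limma adjusted p = 0.182). Neither overlapped between the groups, and neither passed the test, but Gas6 passed with median-ratio scaling, with at least 1 TPM required in each library and when OM replicate 2 was left out (limma adjusted p = 0.0248, 0.0463 and 0.0387). Gas6 also passed with TPM rescaled without mitochondrially encoded genes and with the replicate block (limma adjusted p = 0.0418 and 0.0250). Mgp, which encodes matrix Gla protein, overlapped between the groups at 21805 ± 3063 TPM with empagliflozin and 23235 ± 3398 TPM without it (log2 fold change -0.09, SE 0.14, limma adjusted p = 0.739). The calls of Ggcx and Vkorc1 rest on small differences. Without any 1 library other than OM plus EMPA replicate 3 Ggcx did not pass, and without any 1 other than OM plus EMPA replicate 1 Vkorc1 did not pass, the limma adjusted p reaching up to 0.133 for Ggcx and 0.0837 for Vkorc1.

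The last list was drawn up for phosphatidylserine exposure on the plasma membrane, on whose surface clotting factors assemble. A place on the list does not show that a gene acts at this membrane, and this was not tested for Plscr3. Of 6 genes 5 were tested, of which 1 fell and 0 rose (2 and 0 at an unadjusted p under 0.05 in limma). Plscr3, a scramblase family member, was at 53.55, 50.73 and 53.24 TPM in the OM plus EMPA libraries and at 61.51, 65.02 and 59.64 TPM in the OM libraries, and fell by 0.24 (SE 0.05, limma adjusted p = 0.0329). It did not pass with median-ratio scaling (limma adjusted p = 0.0637) or without any 1 library (limma adjusted p up to 0.107). Ano6, the calcium-activated scramblase of platelets, was at 68.5 ± 3.65 TPM in the OM plus EMPA group, against 71.0 ± 1.86 TPM in the OM group (SD, n = 3 each, log2 fold change -0.05, SE 0.05, limma adjusted p = 0.571). Tmem30a, a flippase subunit, had a log2 fold change of -0.12 (SE 0.04, limma adjusted p = 0.106), and Xkr8, a scramblase, one of -0.13 (SE 0.08, limma adjusted p = 0.383).

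**Figure D5:**
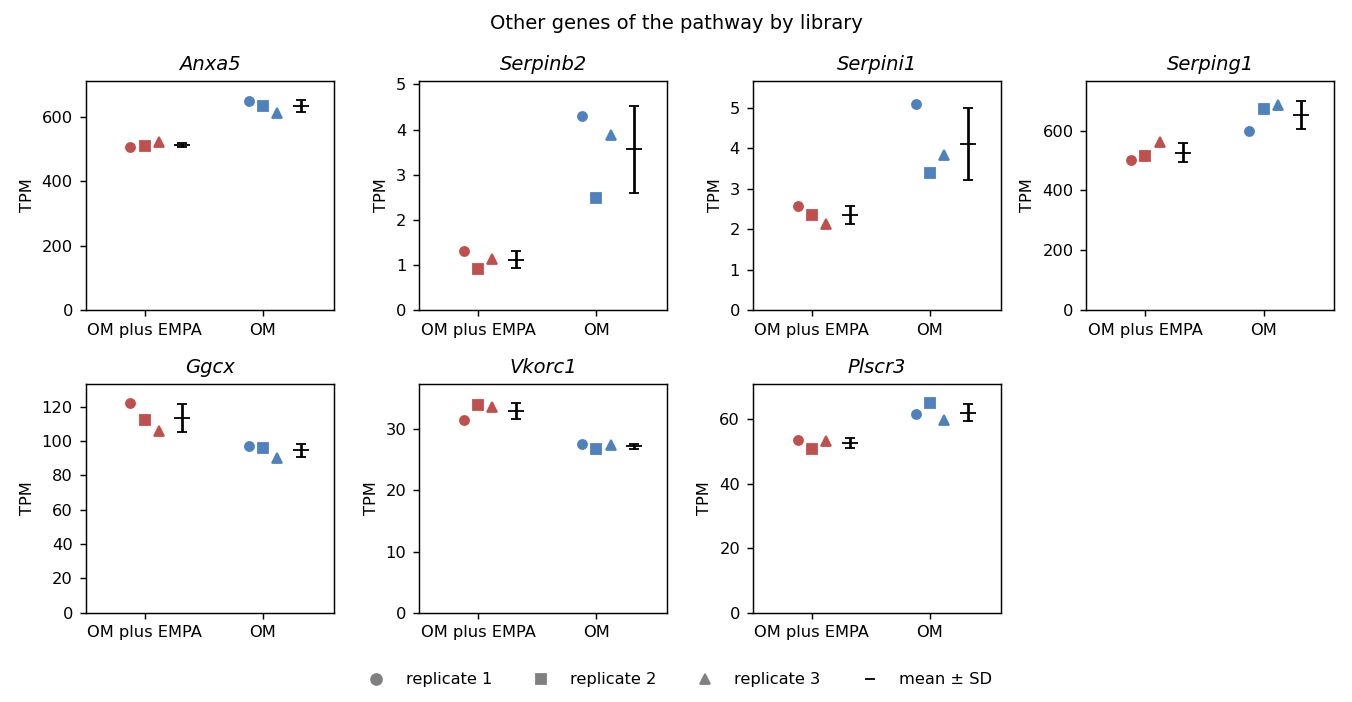
TPM of the 7 other pathway genes that limma called, by library, with symbols and colours as for the 9 coagulation and fibrinolysis genes and black bars for the mean ± SD (n = 3). Anxa5 lies between 506.82 and 521.09 TPM with empagliflozin and between 612.81 and 650.15 TPM without it, and the groups overlap for none of the 7 genes. The 7 were picked by their calls in these same libraries, so this separation is a description. Of all tested genes 7.85% were higher and 22.5% lower without overlap.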

How the data were processed

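Primary rat VSMCs in OM with or without empagliflozin were profiled by paired-end RNA-seq. The authors deposited TPM per gene and library. The submitters' processing notes list HISAT2 2.0.5, fastp, RSEM and DESeq2 but not their roles. No source used here names the genome build. The same table holds the authors' fold changes, p-values and FDR, which were not used, and a second table repeats 181 of its rows. Every per-sample column had a known sample.

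TPM were compared with limma 3.58.1 (R 4.3.3) on log2(TPM + 1), for the 12564 genes averaging 1 TPM or more, with the group as the only term, a variance trend and Benjamini-Hochberg adjustment over all genes tested, and called at an adjusted p of 0.05. The fit had 4 residual and 3.8 prior degrees of freedom and was tested on simulated data. TPM keep no record of depth, so no precision by depth can be given, and a strong rise of some genes lowers the TPM of all others. The members and lists were chosen with earlier results of these data known. The text names all 9 members, the 4 genes with the smallest p and the 2 most abundant of each other list, and the 2 nearest profiles of each tested member whose groups did not overlap, except that 2 tested genes of the lists are counted but not reported here. Motifs were searched in the 250 bases before the starts in the RefSeq windows with Python 3.11.15. Alternatives were a pseudocount of 0.1, no filter, at least 1 TPM in each library, median-ratio scaling, TPM without mitochondrially encoded genes, a replicate block and each library left out in turn.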

Additional observations from a re-analysis of the deposited data

How the results depend on the processing

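With median-ratio scaling 394 genes were called higher and 380 lower in limma, against 259 and 611 as reported. Of the 8 tested coagulation and fibrinolysis genes 2 were then called higher, and of the other pathway genes 4 were called higher and 2 lower, against 2 and 5. TPM rescaled without mitochondrially encoded genes, which made up 10.3% to 10.9% of TPM with empagliflozin and 8.0% to 9.69% without it, also gave 4 and 2. A pseudocount of 0.1, no filter, or at least 1 TPM in each library moved none of these counts beyond 1.5 times. Leaving out 1 library gave 80 to 216 genes called higher (80 without OM plus EMPA replicate 2) and 245 to 438 lower, 1 to 2 of the coagulation and fibrinolysis genes higher and 2 to 3 lower, and 0 to 1 of the other pathway genes higher (4 to 5 at an unadjusted p under 0.05 in limma) and 1 to 3 lower. Anxa5 kept its direction and its call under all 12 alternatives. As a description, the log2 fold change ranged from 1.12 to 1.27 for F3, from -0.40 to -0.31 for Tfpi2 and from -1.36 to -1.17 for Serpine2. Plat kept its direction (-0.62 to -0.42) and lost its call without any 1 OM plus EMPA library or without OM replicate 3. F2r, not called as reported, was called with median-ratio scaling, with the replicate block and without OM replicate 2. The values of Tfpi, F8, Anxa2, F2rl2, Ano6 and Mgp, none of them called, changed sign under at least 1 alternative. The cause of these shifts was not tested.

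The replicate numbers in the sample labels are not said to mark a shared culture. Deviations from the group means of same-numbered libraries correlated across genes at 0.10, 0.16 and 0.06, and since not every value exceeded 0.1 the numbers were not taken as pairs. Each library nonetheless correlated best with its own number, a hint from the data and not from the design. With the replicate block 449 genes were called higher and 951 lower, and 2 of the coagulation and fibrinolysis genes higher. Of the other pathway genes Gas6 was also called with the block (limma adjusted p = 0.0250), and no other of them changed its call. No group was large enough for a search for outlying samples, and the depth behind a TPM of 1, where Plau, Serpinb2 and Serpini1 lie, is unknown.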
